A study of Mus musculus with 4 samples.

Results

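The droplets described here carried RNA of T cells and of liver sinusoidal endothelium under 1 barcode. Barcodes of the tdTomato+ gene expression library were kept from 300 detected genes upward if mitochondrial genes took no more than 10% of their counts, and one was called mixed with at least 2 counts of *Cd3e*, *Cd3d* and *Cd3g* together, at least 1 of *Ptprc*, at least 2 of *Stab2* and at least 3 of *Kdr* and *Clec4g* together. A count is 1 unique molecular identifier (UMI), that is, 1 captured RNA molecule. This rule found 3686 mixed droplets among 17509 kept droplets (21.1%, exact 95% interval 20.5 to 21.7), and these were 53.6% (52.4 to 54.7) of the 6882 droplets that met the T cell part of the rule. The members were thus chosen by the measured counts of those 7 genes, which are given below only as a description.

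The cells came from the liver of mice aged 2 months that carried *Stab2-CrexERT2* together with the *R26-LSL-tdT* reporter and had received tamoxifen at embryonic day 9.5 (E9.5). CD45+ cells had been sorted by flow cytometry for the presence or absence of tdTomato. Both sorts share this genotype (labelled S2) and this induction. Cre activity in these mice follows the *Stab2* promoter, so cells in which it was active at induction, and their progeny, carry the reporter. A 5′ droplet kit yielded, for each sort, 1 library of gene counts and 1 of contigs from the γ and δ receptor loci, and the tdTomato+ libraries are labelled batch 1 and the tdTomato- libraries batch 2. With 1 library per sort there is no replicate and no test. Sort and batch cannot be told apart, and all intervals cover counting error only. The counts hold no feature for the reporter, so which RNA source of a mixed droplet came from a tdTomato+ cell cannot be told apart. The tdTomato+ library held 203366009 UMIs in 17957 barcodes and the tdTomato- library 156771260 UMIs in 18444 barcodes. They shared 84 barcode sequences (0.468% of the former), among them 19 of the mixed droplets.

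Liver sinusoidal endothelial cells line the hepatic capillaries, take up waste molecules through scavenger receptors such as stabilin-2, the product of *Stab2*, and form a thin perforated wall along which lymphocytes pass slowly. Several T cell kinds patrol or settle in these sinusoids. CD8 T cells carry the coreceptor encoded by *Cd8a* and *Cd8b1*, conventional helper and regulatory T cells carry CD4, regulatory T cells depend on the transcription factor FOXP3, natural killer T cells readily make IL-4, and γδ T cells use a receptor whose δ chain ends in the segment *Trdc*. *Kdr* encodes a receptor for vascular endothelial growth factor, *Clec4g* a sinusoidal lectin, *Ptprc* the leukocyte antigen CD45, and the *Cd3* genes the signalling chains of the T cell receptor.

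3 further groups of the same library served for comparison. Reference T droplets met the T cell part of the rule and held no count of *Stab2*, *Kdr* or *Clec4g* (2153 droplets). Intermediate T droplets were the remaining 1043 T droplets. Endothelial droplets met the endothelial part and held no *Cd3* or *Ptprc* count (5511 droplets). The sum of *Stab2*, *Kdr* and *Clec4g* counts over all T droplets was 0 in 2153 droplets and 1 in 466. In narrow bins, 101 droplets held 5 to 7 and 95 held 8 to 11. In wider bins, 905 held 50 to 79, 1124 held 80 to 119, 834 held 120 to 199 and 188 held 200 or more. As the bins differ in width, these totals do not show a gap between low and high sums. The mixed droplets lay mostly far above the limit of the rule, with a lowest sum of 5 and a 10th percentile of 37. In the tdTomato- library 13994 of 14915 T droplets held none of these counts and 43 met the whole rule (0.288%, 0.209 to 0.388). Those 43 had a median of 86 counts of the 3 genes (range 10 to 188), against 89 in the tdTomato+ mixed droplets (range 5 to 434).

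**Figure D1:**
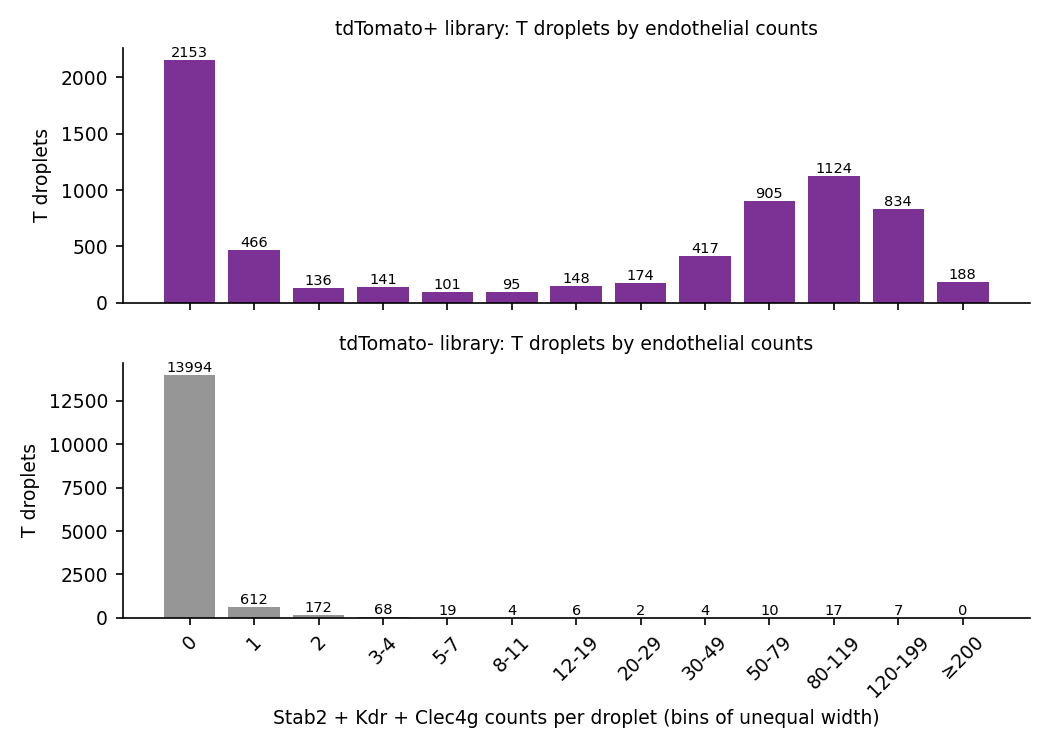
T droplets (vertical axis) by the sum of *Stab2*, *Kdr* and *Clec4g* counts (horizontal axis, bins of unequal width), with the tdTomato+ library above and the tdTomato- library below. The tdTomato+ library has its highest bar, 2153 droplets, at 0 and its next highest in the 3 bins between 50 and 199. The tdTomato- library holds 10, 17 and 7 droplets in the same 3 bins.

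At the border of the rule, 55 T droplets held exactly 2 *Stab2* counts with enough *Kdr* and *Clec4g*, and 103 held 1 and stayed outside. Their medians for the 22 other pan-endothelial genes together were 96 and 70 counts, against 342 over all mixed droplets and 2 in reference T droplets. For *Kdr* and *Clec4g* together, 11 droplets held exactly 3 counts and 22 held 2, with medians of 39 and 24. A further 111 T droplets held at least 2 *Stab2* counts with none of *Kdr* or *Clec4g*, and their other pan-endothelial genes had a median of 4. On the T cell side, 55 droplets held exactly 2 *Cd3* counts and 173 held 1, with medians of 12 and 3 for the 15 other pan-T genes against 52 over all mixed droplets. These borders involve few droplets beside the 3686.

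The label held on genes the rule did not use. The mixed droplets carried *Trac* at 148 CPM (counts scaled to the total of the group) and *Lck* at 295 CPM, against 0.963 and 18.2 CPM in endothelial droplets. *Trac* encodes the constant part of the T cell receptor α chain and *Lck* the kinase that starts its signal. They carried *Lyve1*, a hyaluronan receptor of sinusoidal and lymphatic endothelium, at 350 CPM and *Dnase1l3*, a secreted nuclease, at 1414 CPM, against 2.36 and 10.4 CPM in reference T droplets. The 4 groups had similar mitochondrial content, with medians of 1.56% in mixed, 1.66% in reference T, 1.67% in intermediate and 1.69% in endothelial droplets.

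The amount of RNA in a mixed droplet was close to that of a T droplet and an endothelial droplet added together. Mixed droplets had a median of 16679 UMIs (10th to 90th percentile 9813.5 to 32010.5) and 5102 detected genes. Reference T droplets had 8017 UMIs and 2684 genes, and endothelial droplets 7509 UMIs and 3222 genes, so the medians of the latter groups add up to 15526 UMIs and the mixed median was 107% of that sum. The *Cd3* genes together had a median of 19 counts in mixed and 20 in reference T droplets. *Stab2* had a median of 31 counts in mixed and 26 in endothelial droplets. The counts of the rule genes per droplet were thus near those of the unmixed droplets.

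To separate the 2 sources, each mixed droplet was fitted as a weighted sum of the reference T profile and the endothelial profile over all genes but the 7 of the rule. Over the summed counts the endothelial weight was 48.5%, and per droplet it had a median of 50.9% (10th to 90th percentile 28.9 to 70.6), with 93.4% of mixed droplets between 20 and 80%. Intermediate T droplets had a median weight of 1.53% and 19.7% of them lay between 20 and 80%. The T part of a mixed droplet came to a median of 7749 UMIs, against 7980 in reference T droplets. The endothelial part came to 8202 UMIs, against 7414 in endothelial droplets. Over the 3686 droplets the sizes of both parts had a Spearman rho of 0.25, where the points share 1 library and each pair sums to the depth of its droplet. Whether the RNA came from attached cells, from separate cells that met in a droplet or from 1 cell was not tested.

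**Figure D2:**
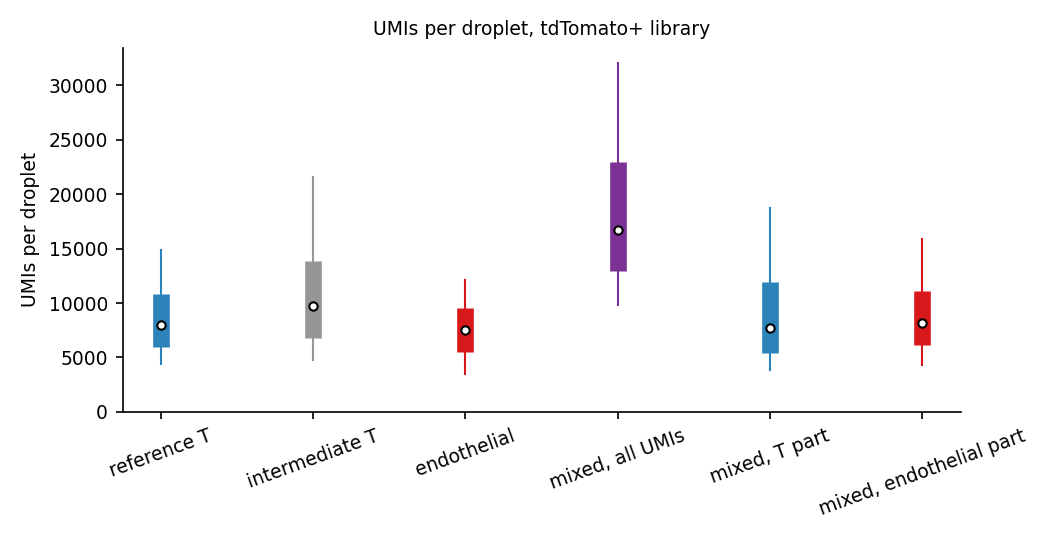
UMIs per droplet (vertical axis, linear) in the tdTomato+ library, where circles mark medians, thick bars the 25th to 75th and thin lines the 10th to 90th percentile. The T part and the endothelial part of mixed droplets, at medians of 7749 and 8202, lie at the level of reference T and endothelial droplets, and all UMIs of mixed droplets at 16679.

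Most T cell kinds of the library were found among the mixed droplets, in shares that differed from the reference T droplets for some of them. *Foxp3* was found in 8.22% of mixed droplets (303 droplets, 7.35 to 9.15) and in 3.76% of reference T droplets (81 droplets, 2.999 to 4.65). *Cd4* was found in 43.6% (42.0 to 45.2) and 32.7% (30.7 to 34.7). *Il4* was found in 15.9% (14.7 to 17.1) and 11.7% (10.3 to 13.1). For these 3 genes the intervals of both groups did not overlap. *Cd8b1* was found in 39.4% (37.8 to 41.0) and 37.1% (35.0 to 39.1), and *Trdc* in 8.68% (7.79 to 9.64) and 7.52% (6.45 to 8.72), with overlapping intervals.

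Such shares depend on how many T cell molecules a droplet holds, so the reference droplets were weighted to the *Cd3* counts of the mixed droplets in 5 strata. The weighted reference shares were 34.2% for *Cd4*, 36.6% for *Cd8b1*, 3.90% for *Foxp3*, 11.1% for *Il4* and 7.35% for *Trdc*. On a log2 scale the mixed share over the weighted share was 1.08 for *Foxp3* (0.61 to 1.56), 0.51 for *Il4* (0.24 to 0.79) and 0.35 for *Cd4* (0.21 to 0.49). It was 0.24 for *Trdc* (-0.13 to 0.61) and 0.11 for *Cd8b1* (-0.03 to 0.25). Bounds set the low end of 1 share against the high end of the other. With every droplet thinned to 3000 UMIs in all, of which endothelial RNA takes its part in the mixed droplets, *Cd4* came to 15.8% in mixed against 21.1% in reference droplets, *Cd8b1* to 22.7 against 32.4%, *Il4* to 5.79 against 6.002%, *Trdc* to 4.59 against 5.03% and *Foxp3* to 3.18 against 2.86%, with overlapping intervals for the last 3. On that scale *Foxp3* was the only one of the 5 that was not lower in mixed droplets. The same 5 genes were nearly absent from endothelial droplets, which had a similar depth to reference T droplets (0.417% for *Cd4*, 0.563% for *Cd8b1*, 0.236% for *Foxp3*, 0.145% for *Il4* and 0.0907% for *Trdc*). In 441 B cell droplets of the library, at a median of 7908 UMIs, they were found in 8.62, 1.81, 0.680, 1.59 and 0.227%.

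**Figure D3:**
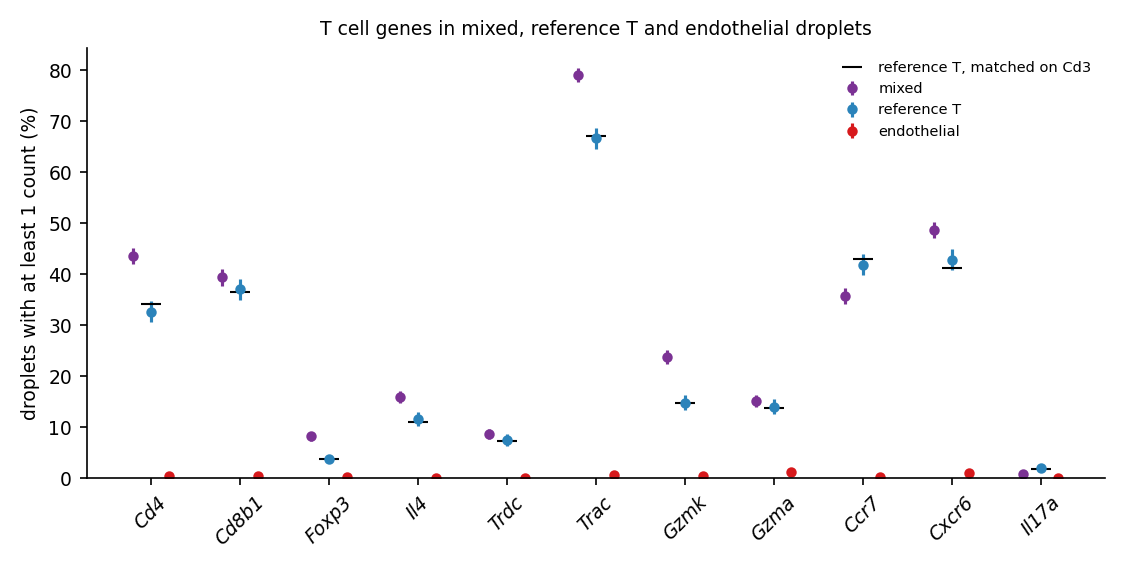
Share of droplets with at least 1 count of a T cell gene (vertical axis, %) in mixed, reference T and endothelial droplets of the tdTomato+ library, with exact 95% intervals for counting error, and the reference share weighted to the *Cd3* counts of mixed droplets as a black bar. *Cd4*, *Foxp3*, *Il4*, *Trac* and *Gzmk* lie higher in mixed droplets, *Ccr7* and *Il17a* lower, and endothelial droplets are near 0 for all of them.

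*Foxp3* had the higher share in mixed droplets in each of the 5 strata, with intervals that overlapped below 16 *Cd3* counts and did not from 16 upward. Its share was 7.21% of 111 mixed against 1.69% of 118 reference droplets at 2 to 3 *Cd3* counts, 9.51 against 4.11% at 4 to 7, 8.54 against 4.81% at 8 to 15, 6.25 against 3.58% at 16 to 31 and 11.004 against 3.59% at 32 or more. *Cd4* did not follow this in the stratum of 8 to 15 counts, where it was found in 45.4% of mixed and 45.5% of reference droplets, and its difference was largest at 32 or more counts, with 53.2 against 31.5%. *Il4* was less frequent in mixed droplets at 2 to 3 counts (1.80 against 7.63%, with overlapping intervals) and more frequent at 16 to 31 (17.0 against 9.78%).

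Read the other way, the share of T droplets that were mixed was 79.9% of 348 (75.3 to 84.0) where *Cd4* and *Cd8b1* were found together. Among droplets chosen by *Foxp3* it was 70.0% of 433 (65.4 to 74.3). *Tnfrsf4*, an activation receptor that regulatory T cells carry, was close to this at 69.3% of 685. *Gzmk*, a granule protease, reached 63.6% of 1375, and *Il4* 59.6% of 984. Droplets with *Cd4* and no *Cd8b1* were mixed in 56.6% of 2349 cases (54.5 to 58.6), those with *Trdc* in 56.3% of 568 (52.1 to 60.5), those with *Cd8b1* and no *Cd4* in 52.3% of 2246 (50.2 to 54.3) and those with neither in 46.7% of 1939. At the low end stood *Il17a*, the cytokine gene of type 17 T cells, with 30.4% of only 102 droplets (21.7 to 40.3). Intervals of *Il4*, *Cd4* and *Trdc* overlapped one another, and so did those of *Trdc* and *Cd8b1*. Among droplets with at least 16 *Cd3* counts the values were 69.5% for *Foxp3*, 59.4% for *Il4*, 57.6% for *Trdc*, 55.0% for *Cd4* alone and 49.0% for *Cd8b1* alone.

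**Figure D4:**
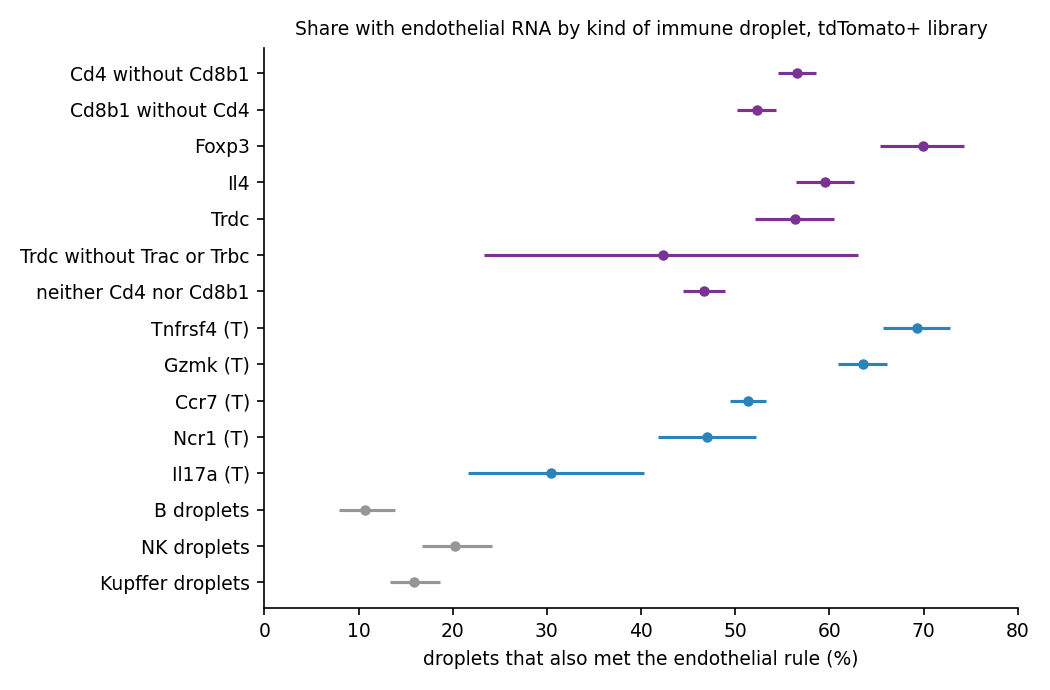
Share of droplets that also met the endothelial part of the rule (horizontal axis, %) for T droplets holding the named gene (purple and blue) and for B cell, NK cell and Kupffer cell droplets (grey), with exact 95% intervals for counting error. *Foxp3* is at 70.0%, the coreceptor groups lie between 46.7 and 56.6%, and the other immune classes lie between 10.7 and 20.3%.

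Of the droplets with exactly 1 of the coreceptor genes, *Cd8b1* made up 46.9% of 2503 mixed droplets (44.9 to 48.9), 53.3% of 1434 reference droplets (50.7 to 55.9) and 46.8% of 658 intermediate droplets. This measure compares T cell genes with each other. Per 1000 *Cd3* counts, the mixed droplets held 53.9 counts of *Cd4* (52.3 to 55.4) and the reference droplets 34.3 (32.7 to 36.0), a log2 ratio of 0.65. *Foxp3* stood at 11.6 and 5.52 (log2 ratio 1.07), *Trdc* at 19.0 and 11.7 (0.70) and *Il4* at 27.0 and 21.1 (0.36). *Cd8b1* stood at 113 and 141 (-0.32), whereas *Cd8a*, its partner in the same coreceptor, stood at 91.7 and 81.6 (0.17), so the 2 chains of CD8 differed in direction on this scale. The α and β receptor chain genes *Trac* (0.70), *Trbc1* (0.63) and *Trbc2* (0.31) were higher against *Cd3* as well, and *Ccr7* was lower (-0.43). A rise against *Cd3* was thus not particular to *Cd4* or *Trdc*.

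A part of the mixed droplets held more than 1 T cell kind. *Cd4* and *Cd8b1* were found together in 278 mixed droplets (7.54%, 6.71 to 8.44) and in 34 reference droplets (1.58%, 1.10 to 2.20). The 278 droplets had medians of 25622 UMIs and 33.5 *Cd3* counts, against 16315 and 18 in the other mixed droplets. *Cd8b1* was also found in 25.4% of the mixed droplets with *Foxp3* and in 14.0% of those with *Il4*, against 4.94% of 81 and 1.99% of 251 such reference droplets. Without the droplets that held both coreceptors the log2 ratio of the weighted shares was 0.94 for *Foxp3*, 0.56 for *Il4*, 0.28 for *Trdc* and 0.23 for *Cd4*, and that of *Cd8b1* was -0.04.

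The *Foxp3* droplets carried the other genes of regulatory T cells. Of the 303 mixed ones, 93.1% held *Ctla4*, which encodes an inhibitory receptor, 91.7% *Ikzf2*, which encodes the transcription factor Helios, 73.9% *Tnfrsf18*, 72.6% *Cd4* and 57.1% *Il2ra*, the α chain of the IL-2 receptor. The 81 reference ones held them in 87.7, 84.0, 74.1, 72.8 and 59.3%, with overlapping intervals for each. Of the 586 mixed droplets with *Il4*, 82.3% held *Zbtb16*, the transcription factor of natural killer T cells and other innate-like T cells, 80.9% *Ifng*, 75.8% *Cd40lg* and 63.1% *Cd4*. The 251 reference ones held them in 80.1, 74.5, 75.3 and 58.2%.

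By *Trdc*, shares of γδ T cells had overlapping intervals in mixed and reference droplets. *Trdc* was found without *Trac* in 149 mixed droplets (4.04%, 3.43 to 4.73) and 115 reference droplets (5.34%, 4.43 to 6.38), and it exceeded *Trac* in 6.59 and 6.73%. Without *Trac*, *Trbc1* and *Trbc2*, only 11 droplets of each group were left. 2 genes used by interleukin-17-producing γδ T cells, among other T cells, were less frequent in mixed droplets. *Il17a* was found in 31 mixed droplets (0.841%, 0.572 to 1.19) and 44 reference droplets (2.04%, 1.49 to 2.73), with summed counts of 486 and 1516. *Trdv4*, a δ chain variable segment that these cells use, was found in 3.28 and 7.06%. A single reference droplet gave 22.5% of the *Il17a* counts there. *Il17f*, a related cytokine gene looked up after these values were seen, went the other way, with summed counts of 220 in mixed and 46 in reference droplets. Of the γδ T cell genes listed beside *Trdv4*, *Blk* was also more frequent in mixed droplets, at 4.75 against 2.65%. *Blk* was found in 2.74% of endothelial droplets. The γ chain constant genes *Trgc2* (20.4 against 12.4%) and *Trgc1* (11.7 against 8.50%) were more frequent too, without overlapping intervals. By level against the fitted sum of profiles, *Trgc2* was higher (log2 ratio 1.00). *Trgv2* (-0.41), *Trgv4* (-0.43) and *Trgv1* (-0.14) were lower.

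The receptor libraries, which the rule did not use, gave productive γ or δ chain contigs for 65 mixed droplets (1.76%, 1.36 to 2.24), 43 reference droplets (2.00%, 1.45 to 2.68) and 24 intermediate droplets (2.30%). None of the 5511 endothelial droplets had one (exact 95% interval up to 0.0669%). Of the 65 droplets, 59 also held *Trdc*, 34 *Trac*, 15 *Cd8b1* and 14 *Cd4* counts. The γ contigs of mixed droplets used TRGV4 in 24, TRGV2 in 15 and TRGV1 in 13 of 58 cases, and those of reference droplets used them in 16, 12 and 7 of 40. TRDV2-2 made up 13 of 17 δ contigs in mixed droplets.

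The mixed droplets held 55 distinct CDR3 nucleotide sequences, of which 7 were also in reference T droplets and 27 in the tdTomato- receptor library. CDR3 is the part of a receptor chain in which the V and J segments are joined, so a sequence found in many droplets marks a shared or recurrent rearrangement. The sequences found in the most mixed droplets are shown because 3 of the 4 were also found in reference T droplets, all but the TRGV2 one. They were read from the deposited contigs and run 5′ to 3′. In the first pair, both TRGV4 joined to TRGJ1, capitals mark the bases between the first 12 and the last 23 that both share, and the others have no capitals.
TRGV4, TRGJ1, first: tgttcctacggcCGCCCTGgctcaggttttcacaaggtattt
TRGV4, TRGJ1, second: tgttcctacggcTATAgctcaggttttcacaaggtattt
TRGV2, TRGJ2: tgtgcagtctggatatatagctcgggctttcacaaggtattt
TRGV1, TRGJ4: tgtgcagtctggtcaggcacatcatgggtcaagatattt

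The γ chain locus lies on chromosome 13 of GRCm38, where GENCODE M21 places *Tcrg-V4* at chr13:19184974-19185506 and *Trgj1* at chr13:19210343-19210402 on the plus strand. The first sequence was found in 16 droplets of the tdTomato+ library, of which 8 were mixed, 7 reference and 1 intermediate, and in 0 droplets of the tdTomato- library. All 16 held *Trdc*, all 16 the cytotoxic protease gene *Gzmb* and all 16 *Cd160*, a receptor of cytotoxic lymphocytes, 13 held *Ifng*, 6 *Trac* and none *Klrc1*, and none had a δ contig. The second sequence was found in 10 tdTomato+ droplets, of which 4 were mixed, 5 intermediate and 1 reference, and in 230 tdTomato- droplets. The TRGV2 sequence was in 3 tdTomato+ droplets, all mixed, and in 6 of the tdTomato- library. The TRGV1 sequence was in 3 mixed, 2 intermediate and 1 reference droplet and in 94 tdTomato- droplets.

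The sum of both profiles described nearly all genes of the mixed droplets. Of 4316 genes with at least 50 CPM in the mixed droplets or in the mixture, 90.6% lay within 1.2-fold and 99.0% within 1.5-fold of the mixture, with a median log2 ratio of 0.02. At least 2-fold above it were 13 genes (0.301%) and at least 2-fold below it 3 genes (0.0695%). All 4 tested MHC class II genes were among the 13, with a median log2 ratio of 1.38. *Cd74*, the invariant chain, stood at 762 CPM against 298 in the mixture. So were 5 of 5 tested Kupffer cell genes (median 1.78), among them *Clec4f*, the lectin of resident liver macrophages, at 72.4 against 13.3 CPM and *Cd5l*, a secreted macrophage protein, at 61.8 against 10.4. *C1qa*, *C1qb* and *C1qc*, subunits of complement C1q, had log2 ratios of 1.56, 1.25 and 1.78, and *Lyz2*, the lysozyme of myeloid cells, one of 1.37.

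**Figure D5:**
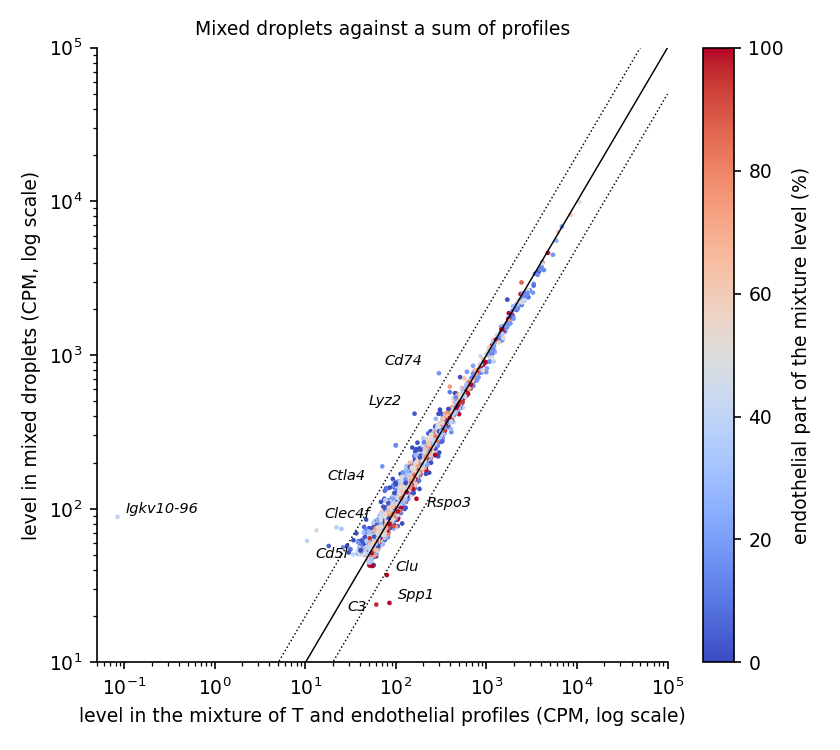
Level of 4316 genes in mixed droplets (vertical axis, CPM, log scale) against their level in the fitted sum of the reference T and endothelial profiles (horizontal axis, CPM, log scale), coloured by the endothelial part of that sum, with the solid line at equality and dotted lines at 2-fold. Nearly all genes follow the line from T cell genes (blue) to endothelial genes (red), and 13 lie above 2-fold, among them Kupffer cell and MHC class II genes, and 3 below it, *Spp1*, *C3* and *Clu*.

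These counts sat in few droplets. The 37 mixed droplets richest in a gene held 71.1% of the *Clec4f* and 51.2% of the *Cd74* counts, and a single droplet held 6308 of the 6309 counts of *Igkv10-96*, an antibody light chain segment. At least 10 Kupffer cell counts were found in 81 mixed droplets (2.20%, 1.75 to 2.72), in 8 reference (0.372%) and in 17 endothelial droplets (0.308%). At least 10 neutrophil counts were found in 1.90, 0.929 and 0.218%. Erythroid genes reached 10 counts in 1.33, 0.0464 and 0.817%, and hepatocyte genes 2 counts in 6.35, 1.25 and 5.23%. Of the genes below the mixture, *Spp1* was found in 19 endothelial droplets, which held 7571 counts, and in 38 mixed ones with 1735. *C3* was found in 2.34% of endothelial and 5.10% of mixed droplets, and *Clu* in 17.8 and 18.2%. Without the droplets above the 95th percentile of UMIs, which took out 504 mixed, 51 reference and 20 endothelial droplets, 0 genes were 2-fold above and 0 below the mixture, and the extreme log2 ratios were 0.90 and -0.83.

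Within the 2-fold limit the T cell genes differed among themselves. Of 15 tested pan-T genes 11 lay above the mixture (median log2 ratio 0.20), and all 4 others were lower by at most 0.13. *Trac* stood at 0.58 and *Cd28*, the costimulatory receptor, at 0.55. *Ctla4* stood at 136 CPM against 77.9 in the mixture (0.80) and *Ikzf2* at 136 against 80.02 (0.76). *Cd4* stood at 64.2 against 44.5 CPM (0.53), *Cd8b1* at 135 against 182 (-0.43) and *Cd8a* at 109 against 106 (0.05). Without the deepest droplets named above, *Ctla4* had a log2 ratio of 0.82 and *Ikzf2* one of 0.71.

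Of 9 tested genes of naive and recirculating T cells 7 were below the mixture, with a median log2 ratio of -0.14 over the 9. They included *Igfbp4*, *S1pr1* and *Klf2*, whose mixture levels were 94.2, 49.0 and 28.6% endothelial, so these are not measures of T cells alone. *Lef1* was near the mixture at -0.04, and *Tcf7* (0.04) and *Satb1* (0.37) were above it. *Ccr7*, which encodes a chemokine receptor for homing to lymph nodes, stood at -0.55 and *Il7r*, the IL-7 receptor, at -0.31. By droplets, *Ccr7* was found in 35.7% of mixed and 41.9% of reference droplets. Effector genes lay on both sides, 5 above and 5 below (median 0.03), with *Ccl5* at -0.06, *Ifng* at 0.08, *Gzmk* at 0.26 and *Gzma* at -0.37. Of the 11 tested adhesion and chemokine receptor genes 7 were above. *Cd44*, the hyaluronan receptor, stood at 0.64, *Itga4*, a chain of the integrin that binds VCAM-1, at 0.53 and *Itgal*, a chain of the integrin that binds ICAM-1, at 0.50, while *Itgb2*, the other chain of the latter, stood at -0.02, *Itgb7* at -0.33 and *Selplg*, the P-selectin ligand, at -0.34. Their median of 0.05 lay near the 0.02 of all genes.

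The endothelial side was closer to its profile. Of 22 tested pan-endothelial genes 19 lay below the mixture, none by more than 0.14, with a median of -0.06. *Stab1*, the relative of *Stab2*, stood at 476 CPM against 509, *Mrc1*, the mannose receptor, at 1067 against 1139 and *Lyve1* at 350 against 341. The 4 tested genes of the endothelium near the central vein were all below, with a median of -0.26. *Rspo3*, a Wnt-enhancing ligand made there, stood at 116 against 168 CPM (-0.54), *Cdh13* at -0.28, *Kit* at -0.23 and *Wnt2*, a Wnt ligand, at -0.21. *Rspo3* was found in 18.4% of mixed (17.2 to 19.7) and 18.5% of endothelial droplets (17.5 to 19.6), with 2.24 and 2.74 counts per droplet, so the share did not differ in the way the level did. The 5 tested genes of the endothelium near the portal vein had a median of -0.05. Shares of *Wnt2*, *Kit*, *Cdh13*, *Dll4* and *Efnb2* were higher in mixed than in endothelial droplets. *Wnt2* was found in 68.3 and 65.5%, *Kit* in 64.8 and 62.4% with overlapping intervals, and *Cdh13* in 50.9 and 47.1%. *Dll4*, a Notch ligand of the portal list, was found in 57.0 and 49.2%, and *Efnb2*, an ephrin ligand of arteries, in 43.2 and 37.5%. *Thbd* and *Wnt9b* of the central list went the other way, at 24.9 against 26.3% and 10.3 against 10.6%, with overlapping intervals. *Lyve1*, of neither zone list, was found in 74.2 and 65.3%. Such shares depend on depth, and the endothelial part of mixed droplets was larger, at 8202 against 7414 UMIs.

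Of 8 tested genes by which endothelium holds or attracts leukocytes, 3 lay above and 5 below the mixture (median -0.04). *Icam1* had a log2 ratio of 0.02, *Vcam1*, which was under 50 CPM and not among the 8, one of -0.06, *Cxcl16*, the ligand of CXCR6, one of -0.04, *Cxcl9*, a ligand of CXCR3, one of -0.04, *Jam2*, a junction protein, one of -0.27 and *Cd274*, which encodes PD-L1, one of 0.39. Genes that respond to cell dissociation had a median of -0.02 over 9 and interferon response genes one of -0.07 over 7.

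The tested endothelial genes were at similar levels in the mixed droplets with CD4 and in those with CD8 T cells. The 1329 mixed droplets with *Cd4* alone and the 1174 with *Cd8b1* alone had medians of 31 *Stab2* counts each, 58 and 59 of *Kdr* and *Clec4g* and 350 and 347 of the other pan-endothelial genes. Of 4379 genes 46 (1.05%) differed at least 2-fold, 20 higher with *Cd4* and 26 higher with *Cd8b1*. Of the 710 genes at least 5 times higher in endothelial than in reference T droplets, 1 was higher with *Cd4* and 0 with *Cd8b1*. That 1 was *Ighv1-34*, an antibody heavy chain segment and not an endothelial gene. It had 1 count in endothelial droplets, 0 in reference droplets and all 1356 of its mixed counts in 1 droplet. *Igkv10-96*, whose counts likewise sat in a single droplet, was also among the 20 genes. *Rspo3* stood at 101 and 102 CPM and *Wnt2* at 187 and 178. Some T cell genes had similar ratios in the reference droplets and others did not. *Ccl5*, a chemokine of effector T cells, stood at 383 CPM with *Cd4* and 3433 with *Cd8b1* (log2 ratio -3.16, and -3.26 in reference droplets), and *Gzmk* at 10.3 and 117 (-3.51, and -3.79). *Cd40lg*, which encodes the CD40 ligand of helper T cells, had a log2 ratio of 3.33 in mixed and 4.98 in reference droplets, the chemokine gene *Ccl3* one of -1.64 and -3.03, and *Rgs1*, a regulator of G protein signalling, one of -0.26 and 0.56, so its direction turned.

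Of 4 immune classes compared, T cells had the largest share that met the endothelial part of the rule. Among droplets with *Ptprc* and no *Cd3* count, 20.3% of 474 NK cell droplets (16.7 to 24.2), 15.9% of 761 Kupffer cell droplets (13.4 to 18.7) and 10.7% of 441 B cell droplets (7.94 to 13.9) met the endothelial part, against 53.6% of T droplets, and these intervals did not overlap that of the T droplets. NK droplets were those with at least 2 *Ncr1* counts, B droplets those with 2 of *Cd79a* and *Cd79b*, and Kupffer droplets those with 2 of *Clec4f*, *Vsig4* and *Timd4*. NK droplets that met the endothelial part had a median of 16462.5 UMIs and those without any count of its 3 genes 8706.5. Droplets with no such count were 129 of the 761 Kupffer, 292 of the 474 NK, 277 of the 441 B and 2153 of the 6882 T droplets. The order of the classes thus depended on the limit. In the tdTomato- library 0 of 136 NK, 0 of 161 Kupffer and 0 of 414 B droplets met the endothelial part, with exact 95% intervals up to 2.68, 2.27 and 0.887%.

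The 43 mixed droplets of the tdTomato- library differed in T cell kind from the tdTomato+ ones, as the T cells of that library did. *Trdc* was found in 35 of them (81.4%, 66.6 to 91.6), against 72.4% of its reference T droplets weighted to the same *Cd3* counts. *Cd8b1* was found in 14 and *Cd4* in 8 of the 43, *Il4* in 1 and *Foxp3* in 0 (exact 95% interval up to 8.22%). A productive γ or δ contig was found in 13 (30.2%, 17.2 to 46.1), against 16.8% of the reference T droplets. They had medians of 23839 UMIs and 42 *Cd3* counts.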

How the data were processed

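The authors made the gene expression files with Cell Ranger (version 10.0.0 in the matrix header, genome build mm10 in the submitters' notes) and deposited raw counts of UMIs for 33696 genes per barcode. The contig files hold deposited counts of UMIs per assembled γ or δ chain. 2 gene expression and 2 receptor libraries were used, 1 of each per sort. The matrices held 203366009 and 156771260 UMIs, and this depth and the number of droplets set the intervals, which are exact (Clopper-Pearson for shares, Poisson for counts) at 95%. The paper's clustering was not repeated, and doublets were neither called nor removed, since droplets with RNA of more than 1 cell type are the subject.

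Groups were set by counts of 7 genes. The members, the limits and the 30 gene lists were chosen with earlier results of these data known. Summed counts were fitted by maximum likelihood as a mixture of the reference T and endothelial profiles without the 7 genes of the rule, over the whole table, and the fit was tested on simulated data. A gene was counted as above or below at 2-fold among genes with at least 50 CPM. The named genes were list members with at least 20 CPM in a group, the genes of the rule, and the 10 highest and 10 lowest against the mixture. The counts of droplets per gene, *Klrc1* and the CDR3 sequences were chosen after their values had been seen. Reference shares were weighted to the mixed droplets over *Cd3* strata starting at 2, 4, 8, 16 and 32 counts. Alternatives were stricter filters and rules, a looser reference, other calls per gene, other fits and CPM limits, and thinning to 3000 UMIs, which left out 8 mixed and 87 reference droplets. Of the gene IDs 31961 were in the gene name table, and 3 list members were not found. Results of 2 list members are not reported here. Scripts ran under python 3.11.15 with scipy 1.17.1 and numpy 2.4.6 for statistics, pandas 2.3.3 for tables and matplotlib 3.10.9 for plots.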

Additional observations from a re-analysis of the deposited data

How the results depend on the processing

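No paired analysis was possible because each sort has 1 library and no result comes from a test. The number of mixed droplets was 3511 to 3682 under the stricter filters and rules, and the CD8 share of single-coreceptor droplets was 46.9 to 47.5%. The log2 ratios of *Foxp3*, *Il4* and *Cd4* stayed positive and inside their main interval under every alternative but those given here. Thinned to 3000 UMIs without matching, which by construction leaves fewer T cell molecules in mixed droplets, the log2 ratios were -0.42 for *Cd4*, -0.052 for *Il4*, -0.51 for *Cd8b1*, -0.13 for *Trdc* and 0.16 for *Foxp3*. With at least 2 counts *Cd4* came to 0.53. *Trdc* came to -0.51 without *Trac* or *Trbc* counts and, chosen after seeing the data, to -0.36 without *Trac*. Without droplets that held *Cd4* and *Cd8b1*, also added afterwards, *Cd8b1* came to -0.041.

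The endothelial share was 48.6% with at least 800 genes and at most 5% mitochondrial counts, 48.9% under the stricter endothelial and 48.4% under the stricter T cell rule, 48.2% with the looser reference, 51.1% without the deepest droplets and 50.5% by least squares. It was 49.5% without droplets that held both coreceptors and 48.6% without those that held 2 or more Kupffer counts, both added afterwards. Genes above the mixture numbered 38 at 20 CPM, 813 without a CPM limit, 0 without the deepest droplets and 6 without those with Kupffer counts. Genes below numbered 11, 743, 0 and 3 in the same order. Without the deepest droplets, *Clec4f*, *C1qa*, *Spp1* and *C3* stayed beyond 2-fold but fell under the CPM limit. The causes of these moves were not tested.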

Other observations

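Droplets with *Ptprc* and endothelial RNA but no *Cd3* count numbered 1009 in the tdTomato+ library, with a median of 13024 UMIs. Monocyte genes were found at 2 counts or more in 49.2% of them (46.0 to 52.3), dendritic cell genes in 14.6%, Kupffer cell genes in 11.99%, NK and neutrophil genes in 9.51% each and B cell genes in 4.66%, and a droplet can count under several of these. T droplets with exactly 1 count of *Stab2*, *Kdr* and *Clec4g* together numbered 466 in the tdTomato+ library (6.77%) and 612 in the tdTomato- library (4.10%).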
